A study of Mus musculus with 12 samples.

Results

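The 10 immediate early genes Fos, Fosb, Junb, Egr1, Egr2, Arc, Npas4, Nr4a1, Ier2 and Dusp1 were followed across 12 RNA sequencing libraries of mouse liver and brain. They were taken by name from a table of 55487 genes, and all 10 were matched to a row. The libraries came from 6 mice, each giving 1 liver and 1 brain library, and form 4 groups of 3: WT liver and WT brain (mice B, D and E), and KO liver and KO brain (mice A, C and F). The KO mice lack Mettl5 throughout the body. METTL5 methylates an adenosine of the RNA of the small ribosomal subunit. The KO line was made by deleting a floxed exon 2 with a CMV-cre transgene, from hybrid C57bl/6 x 129S6 embryonic stem cells that were later backcrossed to B6. The controls are labelled WT, but heterozygous animals are named as the controls in parts of the study's own text, and WT means here only the label. The study counts its KO and control mice for RNA sequencing as pairs, but no label says which mice form a pair, so genotypes were compared unpaired. Sex, age, litter and batch are not in the labels, and the study states an age range only for all of its mice together. The labels name no treatment, so the values are levels at the time of collection, with organs taken directly after sacrifice.

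Immediate early genes are transcribed within minutes of a stimulus by transcription factors that are already present in the cell, such as serum response factor and CREB, so their mRNAs appear without new protein synthesis and decay quickly. FOS and FOSB pair with JUN proteins such as JUNB to form the AP-1 transcription factor, and EGR1, EGR2, NPAS4 and NR4A1 are transcription factors of other families. ARC acts at the synapse, where it takes part in the removal of glutamate receptors, and DUSP1 is a phosphatase that switches off MAP kinases. In brain these genes are used as markers of recently active neurons, and in liver they respond to growth factors, feeding, injury and tissue handling.

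Library totals ran from 14403309 to 21623180 counts, and the 10 genes together took 0.00413 to 0.0151% of the counts in liver and 0.0229 to 0.0524% in brain. Mettl5, the targeted gene, was lower in KO libraries in both tissues without overlap. It had 4.64 to 5.23 CPM in KO against 10.1 to 19.0 in WT liver, and 2.61 to 3.12 against 3.96 to 7.13 CPM in brain. It passed no adjusted threshold (edgeR, adjusted p = 0.383 in liver and 0.373 in brain). CPM are read counts divided by the TMM-scaled library size (edgeR). Mice E (WT) and F (KO) lacked Y-linked transcripts and the other 4 mice had them, so each genotype holds the same mixture. On mm10, 9 of the genes lie at chr12:85473890-85477273 (Fos), chr7:19302696-19310051 (Fosb), chr8:84976910-84978718 (Junb), chr10:67535475-67542188 (Egr2), chr15:74669083-74672570 (Arc), chr19:4984355-4990316 (Npas4), chr15:101254269-101274795 (Nr4a1), chr8:84661331-84662854 (Ier2) and chr17:26505590-26562128 (Dusp1). Hepatocyte markers summed to at least 76467 CPM in every liver library and at most 25.4 CPM in every brain library, and markers of all neurons to at least 1586 CPM in every brain library and at most 21.4 CPM in every liver library. The brain libraries differed in regional markers between the genotypes, which is given beside the brain comparison. Mitochondrial ribosomal RNA took 7.36 to 8.66% of counts in KO liver against 10.7 to 16.9% in WT liver, and 21.4 to 31.6% in KO brain against 7.63 to 17.7% in WT brain.

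The promoters are shown for 4 members that behaved differently in these libraries: Fos and Nr4a1 were read in both tissues, Npas4 in brain alone, and Dusp1 overlapped between them. They run from 250 bases before to 50 bases after a start site of RefSeq (GRCm38, the same build as mm10), 5′ to 3′ on the strand of the gene: Fos at chr12:85473640-85473939 on the plus strand, Nr4a1 at chr15:101266596-101266895 on the plus strand, Npas4 at chr19:4989922-4990221 on the minus strand and Dusp1 at chr17:26508423-26508722 on the minus strand. Capitals mark matches, on either strand, to the motifs named after the sequences.
Fos: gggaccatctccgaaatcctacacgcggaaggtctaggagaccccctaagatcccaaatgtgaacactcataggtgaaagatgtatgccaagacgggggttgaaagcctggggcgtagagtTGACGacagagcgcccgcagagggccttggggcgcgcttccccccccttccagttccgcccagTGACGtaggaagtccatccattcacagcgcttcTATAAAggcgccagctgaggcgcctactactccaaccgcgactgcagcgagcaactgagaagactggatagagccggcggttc
Nr4a1: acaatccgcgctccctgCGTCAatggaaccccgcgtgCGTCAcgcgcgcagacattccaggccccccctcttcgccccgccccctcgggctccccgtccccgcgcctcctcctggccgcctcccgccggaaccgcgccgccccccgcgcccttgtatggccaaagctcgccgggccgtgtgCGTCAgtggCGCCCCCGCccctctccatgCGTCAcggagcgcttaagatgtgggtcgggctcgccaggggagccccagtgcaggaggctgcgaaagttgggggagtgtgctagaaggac
Npas4: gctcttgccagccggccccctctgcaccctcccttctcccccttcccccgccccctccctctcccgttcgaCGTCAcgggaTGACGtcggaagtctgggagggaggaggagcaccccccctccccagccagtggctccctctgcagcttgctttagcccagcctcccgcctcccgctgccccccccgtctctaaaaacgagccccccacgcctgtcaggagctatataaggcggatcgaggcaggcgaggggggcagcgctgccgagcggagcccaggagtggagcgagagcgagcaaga
Dusp1: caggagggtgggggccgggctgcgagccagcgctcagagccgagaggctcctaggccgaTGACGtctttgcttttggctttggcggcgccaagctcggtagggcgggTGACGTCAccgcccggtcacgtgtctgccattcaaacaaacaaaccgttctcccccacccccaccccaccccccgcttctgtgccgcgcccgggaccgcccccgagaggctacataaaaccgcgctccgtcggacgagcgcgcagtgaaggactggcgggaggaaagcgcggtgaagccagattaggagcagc

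RefSeq promoters were matched and searched for 7 of the 10 members (Fos, Fosb, Junb, Egr2, Npas4, Nr4a1 and Dusp1). The core of the cyclic AMP response element, which CREB binds (CGTCA, either strand), stood in 6 of the 7, in all but Egr2, against 20.8% of 32851 mouse promoters of the same length. Nr4a1 held 4 copies, at 233, 213, 69 and 40 bases before the start site, and Fos held 2, at 129 and 66 bases before it. Npas4 held 2 copies at 179 and 169 bases before the start. The full palindrome TGACGTCA stood in Dusp1 alone, at 143 bases before the start, where it accounts for 2 of its 3 copies of CGTCA (these overlap), and in 1.79% of all promoters. The EGR motif (GCGTGGGCG or GCGGGGGCG) stood in Fosb and Nr4a1 (3.47% of all promoters), and TATAAA in Fos and Junb (13.6%). The AP-1 motif TGANTCA (7.81%) and the CArG box bound by serum response factor (1.63%) had no match in these 7 windows. The windows reach only 250 bases before the start, so sites farther upstream were not searched. Arc, Egr1 and Ier2 were not searched at all. The missing matches therefore do not show that a gene lacks these elements. The start sites used for Nr4a1 and Dusp1 lie 12577 and 53656 bases inside the longer gene models of the count table, which also span distant first exons. These matches are letters in a sequence, and no binding was measured.

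Of the 7 genes with enough counts to pass the edgeR filter on low counts in both organs, 5 were higher in WT brain than in WT liver (Fos, Fosb, Junb, Egr1 and Nr4a1), Ier2 was lower and Dusp1 passed no threshold (edgeR quasi-likelihood test, adjusted p under 0.1). Egr2, Arc and Npas4 passed the filter through brain alone, so their difference is given as values without a test. Most genes differ between these organs: 78.3% of the 17694 genes tested were called, 42.9% higher in brain and 35.4% lower, so a single call says little. The median log2 difference of the 7 genes was 1.76 (2.74 without mouse B), against 0.16 over all genes tested. In whole tissue, a larger share of expressing cells and more RNA per cell cannot be told apart.

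The AP-1 members ran from a large to a small difference. Fos had 2.36, 2.07 and 1.14 CPM in the WT livers of mice B, D and E, and 21.5, 28.5 and 23.3 CPM in their brains. Every brain library was far above every liver library, and the log2 difference was 3.70 (SE 0.27, adjusted p = 4.69e-07). Fosb had 0.851, 0.957 and 0 CPM in WT liver and 4.60, 5.53 and 5.34 CPM in WT brain, a log2 difference of 3.09 (SE 0.63, adjusted p = 0.00119). The liver values of Fosb rest on 13, 12 and 0 counts. Junb had 17.6, 24.5 and 10.2 CPM in WT liver and 26.1, 21.6 and 33.0 CPM in WT brain, so the groups overlapped in the library of mouse D. Its log2 difference of 0.62 (SE 0.29, adjusted p = 0.0778) was lost without mouse B (0.195) and without mouse E (0.556).

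Egr1 and Egr2 are zinc finger transcription factors. Egr1 had 7.72, 5.50 and 10.2 CPM in WT liver and 49.7, 55.0 and 83.3 CPM in WT brain, a log2 difference of 3.0 (SE 0.27, adjusted p = 2.63e-06). Egr2 was read at 1, 2 and 4 counts in WT liver and at 60, 58 and 154 counts in WT brain, or 3.03, 2.31 and 6.10 CPM, so the ranges did not overlap. Nr4a1, a nuclear receptor without a known natural ligand, had 20.2, 5.34 and 6.53 CPM in WT liver and 31.4, 34.5 and 43.6 CPM in WT brain. Mouse B was the highest WT liver library for Nr4a1, with a group mean of 10.7 ± 8.27 CPM (SD, n = 3). The difference to brain was 1.76 on the log2 scale (SE 0.46, adjusted p = 0.00816), and 2.74 without mouse B.

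The synaptic and neuronal members separated the organs completely. Arc had 95.6, 114 and 146 CPM in WT brain and 3, 0 and 0 counts in WT liver, which puts brain at least 548-fold higher than the level of 3 counts per library. Npas4, a transcription factor of neurons that respond to calcium, had 10.8, 10.1 and 12.2 CPM in WT brain and no count in any of the 6 liver libraries, WT or KO. WT brain was at least 51.1-fold higher than the level that 3 counts per library allow. Zero counts limit Npas4 in liver at this depth and do not show that it was absent.

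Ier2, a nuclear protein of the early growth factor response, and Dusp1 did not share the brain bias. Ier2 had 13.5, 21.5 and 10.3 CPM in WT liver and 6.27, 6.29 and 5.30 CPM in WT brain, so every liver library lay above every brain library (log2 difference -1.35, SE 0.27, adjusted p = 0.00103). Dusp1 had 50.6, 29.8 and 19.7 CPM in WT liver and 23.3, 27.2 and 22.2 CPM in WT brain, which overlapped, and its log2 difference of -0.47 had a 95% interval from -1.11 to 0.18. In the KO libraries compared in the same way, 5 of the 7 genes were called, against 80.2% of the 17396 genes tested, with Junb (0.17, adjusted p = 0.772) and Dusp1 (-0.72, adjusted p = 0.186) not, and the median difference was 1.34. Egr1 was 1.34 higher in KO brain than in KO liver on the log2 scale, against 3.0 in WT mice, and the test of that gap is given with the comparison of genotype effects below.

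**Figure D1:**
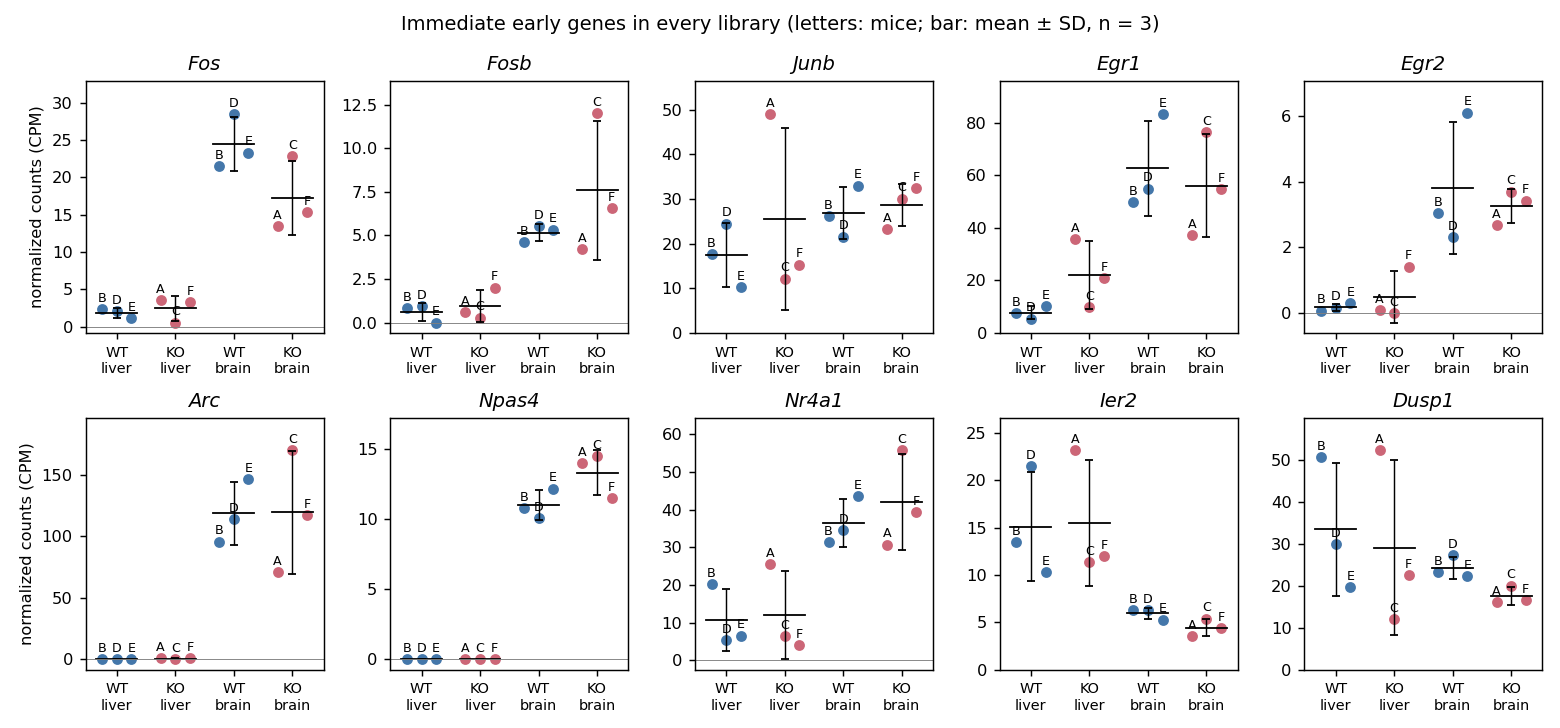
Normalized counts (CPM, linear axis from 0) of the 10 genes in every library, with 1 point per mouse (letters), WT in blue and KO in red, and the mean ± SD of 3 libraries in black. Arc, at 95.6 to 146 CPM in WT brain, and Npas4 are near or at 0 in all liver libraries, Ier2 is higher in liver, and the liver points of Junb, Nr4a1 and Dusp1 are widely spread.

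Compared per kilobase of exon (CPM divided by exon length), Arc was the most abundant of the 10 in WT brain, at 38.8 ± 8.44 CPM per kb (SD, n = 3), and did not overlap Junb, which came next at 14.9 ± 3.19. Junb, Egr1 (14.0 ± 4.03), Fos (10.4 ± 1.56) and Nr4a1 (10.4 ± 1.81) overlapped as neighbours in that order. Dusp1 (7.32 ± 0.796), Ier2 (3.91 ± 0.369) and Npas4 (2.67 ± 0.266) followed without overlap between neighbours, and Egr2 (1.12 ± 0.592) and Fosb (0.826 ± 0.0789) were lowest and overlapped. In WT liver, Dusp1 (10.1 ± 4.76 CPM per kb), Ier2 (9.92 ± 3.79) and Junb (9.64 ± 3.94) could not be ordered. Nr4a1 (3.05 ± 2.36) overlapped both Junb and Egr1 (1.74 ± 0.519), Fos stood at 0.789 ± 0.272, and Fosb, Egr2, Arc and Npas4 were below 0.1. KO brain had the same gene on top, Arc at 39.0 ± 16.2, and KO liver was led by Junb at 14.1 ± 11.3, Ier2 at 10.2 ± 4.37 and Dusp1 at 8.76 ± 6.31, which again overlapped.

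The spread between mice differed between the organs. In liver, edgeR's biological coefficient of variation (BCV), the spread of a gene between libraries beyond counting error, ran from 0.321 for Ier2 to 0.786 for Fosb over the 7 members that passed the filter on low counts (Egr2, Arc and Npas4 did not). All 7 lay above the median of 0.22 over the 14075 genes tested, at percentiles from 80.7 to 98.9, and 6 of the 7 were above the 90th percentile. In brain, the BCV ran from 0.153 for Dusp1 to 0.307 for Egr2 over all 10 members, 5 of which were above the median of 0.196 over 17188 genes, at percentiles from 19.8 to 83.5. The same gene thus ranked differently in the organs: Dusp1 stood at percentile 97 in liver and 19.8 in brain, Junb at 97.2 and 43.6, and Nr4a1 at 98.8 and 53.7.

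The BCV pools both genotypes of an organ. Within groups, the median SD of log2 CPM over members was 0.63 in WT liver, 1.07 in KO liver, 0.22 in WT brain and 0.34 in KO brain, against 0.23 to 0.25 for all genes. By this SD, 6 of the 7 members lay above the 90th percentile of all genes in KO liver, and 2 of the 7 in WT liver. In each brain group 1 of the 10 did. Counting error was small beside this for most members: it accounts for an SD of 0.09 for Junb in WT liver, where the observed SD was 0.63, and of 0.11 for Nr4a1 in KO liver, where it was 1.36. Fosb in WT liver (SD 1.66) includes a library with no count, for which counting error alone gives 0.50. In WT brain, Fosb (0.13 observed, 0.13 from counting) and Ier2 (0.14 observed, 0.12 from counting) varied by little more than counting error. The difference in spread between the organs was not tested.

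**Figure D2:**
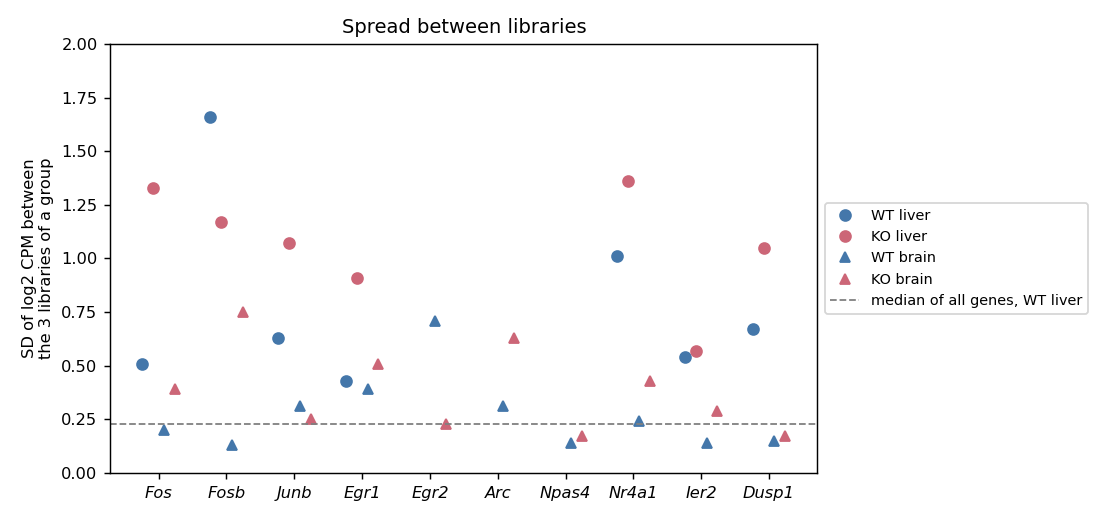
SD of log2 CPM between the 3 libraries of each group, with circles for liver and triangles for brain, and the dashed line at the median of all genes in WT liver (0.23). All liver points, from 0.43 to 1.66, lie above the line, whereas WT brain points run from 0.13 to 0.71. Egr2, Arc and Npas4 have too few liver counts for a point.

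In liver, no member was called between KO and WT (edgeR, 0 of 7 tested, where 0% of the 14075 genes were called). At an unadjusted p under 0.05, 1 of the 7 passed, Egr1, against 7.33% of all genes, and DESeq2 called 1 of the 7, again Egr1, against 1.1% of 15516 genes (171 called). In none of the 7 were the KO and WT libraries without overlap, against 13.2% of all genes. The median log2 fold change of the 7 genes was 0.38, against 0 over all genes. It was -0.37 without mouse A, 0.85 without mouse C and 0.09 without mouse E, so it depends on single mice.

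Egr1 had 7.72, 5.50 and 10.2 CPM in WT liver and 35.7, 10 and 20.9 CPM in KO liver (mice A, C and F). The groups met only at the top of WT (mouse E) and the bottom of KO (mouse C). By Y-linked transcripts, a class read from the data, the KO livers had 35.7 and 10 CPM against 7.72 and 5.50 CPM in WT for the mice that had them, and 20.9 against 10.2 CPM for the single pair that lacked them. With that class as a covariate the log2 fold change was 1.49 (adjusted p = 0.428). Without it the log2 fold change was 1.48 (SE 0.47, 95% interval 0.34 to 2.62, adjusted p = 0.546), and over the alternatives it ran from 0.96, without mouse A, to 1.83, without mouse C. DESeq2 (adjusted p = 0.0234) and edgeR without the filter on low counts (0.0261, where 1.63% of 27130 genes were called) called it, and the other alternatives did not.

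The other liver members differed by less than their spread. Junb had 49.1 CPM in the KO liver of mouse A and 12.2 and 15.3 in those of mice C and F, against 10.2 to 24.5 in WT liver, and its log2 fold change of 0.52 (95% interval -1.16 to 2.20) became -0.37 without mouse A. Nr4a1 had 25.5, 6.43 and 4.09 CPM in KO liver, with a log2 fold change of 0.13 (95% interval -2.22 to 2.49) that fell to -1.05 without mouse A. Dusp1 had 52.3, 12.1 and 22.6 CPM in KO liver and a log2 fold change of -0.23 (95% interval -1.88 to 1.42). Fos had 3.55, 0.572 and 3.28 CPM (0.38, interval -1.0 to 1.76), and its value was 0.03 without mouse A and 0.85 without mouse C. Fosb had 0.618, 0.286 and 2.01 CPM (0.67, interval -1.62 to 2.97). Ier2 had 23.2, 11.4 and 12 CPM, and its 0.01 had the narrowest interval of the 7, from -0.83 to 0.85. The intervals of Junb, Nr4a1, Fosb and Dusp1 include log2 differences beyond 1 in both directions, so a doubling either way is not excluded. Summed markers of hepatocytes, Kupffer cells, sinusoidal endothelium, stellate cells, cholangiocytes, B and T cells, neutrophils and red cells overlapped between KO and WT liver. All 8 markers on a list of brain vessels were tested in liver too. They summed to 2403 to 2584 CPM in KO and 1857 to 2148 CPM in WT liver, and to 127 to 143 CPM in brain. In WT brain, 7 of the 8 stood lower than in WT liver, so the liver sum cannot be read as an amount of vessels. The part of this list in these values was not tested.

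The 3 liver members under the filter were read on few counts. Arc had 10, 4 and 9 counts in KO liver and 3, 0 and 0 in WT liver, so the KO libraries (0.772, 0.286 and 0.603 CPM) all lay above the WT libraries. Of the genes tested in liver, which Arc is not among, 13.2% had no overlap in either direction. KO liver was at least 2.56-fold higher than the level of 3 counts per library, and an exact two-sided permutation test of CPM gave p = 0.1, the smallest that 3 against 3 libraries can give. Markers of all neurons summed to 13.9 to 21.4 CPM in KO liver and 10.3 to 16.1 CPM in WT liver, which overlapped. Egr2 reached 21 counts in KO liver of mouse F and at most 4 in every other liver library, and Npas4 had none.

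In brain, no member was called between KO and WT (edgeR, 0 of 10, against 0.064% of 17188 genes called, 11 in all). At an unadjusted p under 0.05, 2 of the 10 passed, Dusp1 and Fos, against 11% of all genes, and DESeq2 called 0 of the 10, against 1.58% of 16987 genes. The median log2 fold change of the 10 genes was -0.07, with 5 above and 5 below 0. It was 0.14 without mouse A, -0.32 without mouse C and 0.24 without mouse E.

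Dusp1 had 23.3, 27.2 and 22.2 CPM in WT brain and 16.1, 20.0 and 16.5 CPM in KO brain. It was the 1 member of 10 whose KO libraries all lay to 1 side of the WT libraries, which 16.4% of all genes did. The log2 fold change was -0.46 (SE 0.15, 95% interval -0.80 to -0.12, adjusted p = 0.377), and -0.34 to -0.57 over the alternatives, none of which called it. An exact permutation test gave p = 0.1, the smallest possible here. Fos had 21.5, 28.5 and 23.3 CPM in WT brain and 13.5, 22.8 and 15.4 CPM in KO brain, where the KO library of mouse C lay among the WT values. Its log2 fold change was -0.50 (SE 0.21, 95% interval -0.97 to -0.03, adjusted p = 0.431), and -0.76 without mouse C (adjusted p = 0.151).

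Ier2 was at 6.27, 6.29 and 5.30 CPM in WT brain and 3.57, 5.39 and 4.40 in KO brain (log2 fold change -0.41, 95% interval -0.90 to 0.08). Fosb had 4.21, 12 and 6.58 CPM in KO brain against 4.60 to 5.53 in WT brain (0.56, interval -0.19 to 1.32), with mouse C highest, and the value was 0.07 without that mouse and 0.85 without mouse A. Npas4 had 14.0, 14.5 and 11.5 CPM in KO brain against 10.1 to 12.2 in WT brain (0.28, interval -0.09 to 0.64). Arc had 70.7, 169.8 and 117 CPM in KO brain against 95.6, 114 and 146 in WT brain. The 2 means were both 119 CPM, and the interval of the log2 difference (0.01) ran from -0.66 to 0.69. The KO values of Arc spanned both sides of the WT values, with mouse A lowest and mouse C highest.

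Egr1 had 37.2, 76.4 and 54.7 CPM in KO brain (log2 fold change -0.16, 95% interval -0.79 to 0.48), and Egr2 2.68, 3.69 and 3.42 CPM (-0.22, interval -1.04 to 0.59). Nr4a1 had 30.7, 55.8 and 39.3 CPM (0.20, interval -0.29 to 0.70), and Junb 23.3, 30.1 and 32.5 CPM (0.09, interval -0.33 to 0.52). For all 4 genes the KO values overlapped those of WT. The intervals of Egr1, Nr4a1, Junb and Arc exclude a log2 difference of 1 in either direction, and that of Egr2 does not.

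Regional markers moved with genotype in these brain libraries. The 5 olfactory bulb markers summed to 23.5 to 35.9 CPM in KO brain and 2.28 to 4.12 in WT brain, and 4 of them are among the 11 genes called in brain. The 6 striatal markers summed to 260.1 to 368 CPM in KO and 135 to 257 in WT brain. Cerebellar markers summed to 28.9 to 304 against 432 to 836 CPM, dentate gyrus markers to 98.1 to 144 against 187 to 223 CPM, and choroid plexus markers to 88.2 to 141 against 175 to 303 CPM. No defining marker of these 5 lists was at the floor of 3 counts in KO brain, and 1 olfactory bulb marker was in WT brain. Markers of all neurons (1641 to 1730 against 1586 to 1962 CPM), of cortical excitatory neurons, oligodendrocytes, astrocytes, microglia and vessels overlapped as sums. Gene by gene, 3 of the 4 markers of all neurons and all 4 astrocyte markers had a log2 fold change below 0. Of the cortical neuron markers, 4 of 5 were above 0, and the other 3 lists were split evenly. At an unadjusted p under 0.05 (edgeR), 2 of 4 neuron, 1 of 4 astrocyte and 2 of 8 vessel markers passed, against 11% of all genes. None was called. Kupffer cell markers summed to 3.19 to 3.29 CPM in KO and 2.26 to 2.83 CPM in WT brain, with 4 of the 5 at the floor in both. The part of these regional markers and of the mitochondrial ribosomal RNA share in the values of Dusp1, Fos and the other members was not tested.

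**Figure D3:**
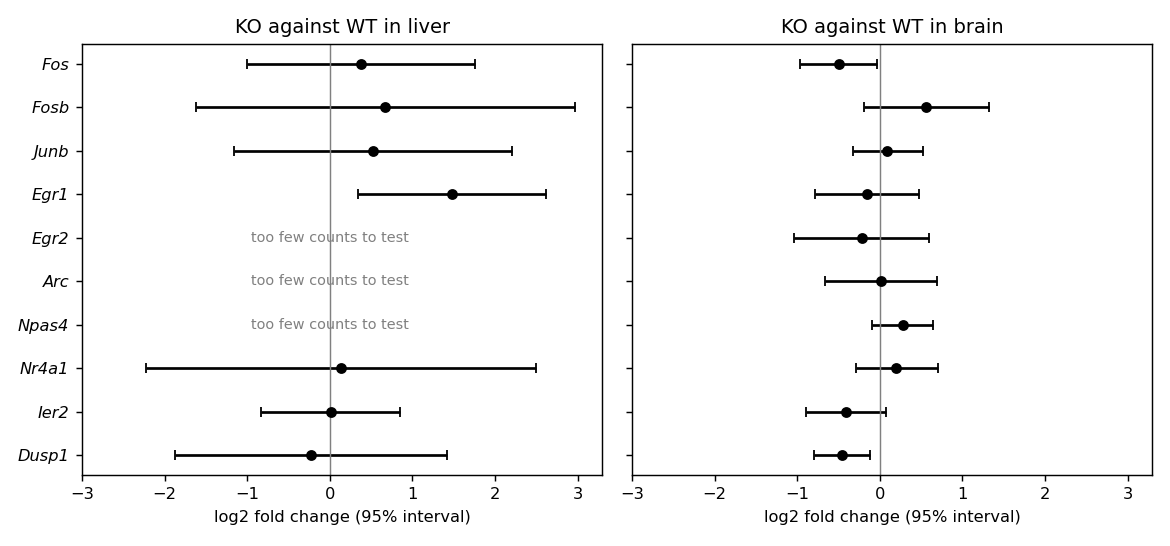
Log2 fold change of KO against WT with its 95% interval for each member, in liver (left) and brain (right). Intervals are wider in liver. Those of Egr1 in liver (0.34 to 2.62) and of Dusp1 and Fos in brain lie to 1 side of 0, but none passed the adjustment over all genes.

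The genotype effect in liver minus that in brain was tested over all 12 libraries. Of the 7 members that passed the filter in both organs, 0 were called (edgeR, 0% of 18944 genes called), and DESeq2 called 0, against 2.08% of 17699 genes. At an unadjusted p under 0.05, 1 of the 7 passed, Egr1, against 10.6% of all genes. The difference for Egr1 was 1.67 on the log2 scale (SE 0.58, 95% interval 0.41 to 2.92, adjusted p = 0.357), and it was 0.93 without mouse A. Fos differed by 0.91 (interval -0.42 to 2.25), with 0.43 without mouse A, 0.56 without mouse F and 1.64 without mouse C, and the other 5 differed by -0.05 to 0.46. Egr2, Arc and Npas4 had too few liver counts for a difference to be read. With mouse as a block, so that both organs of an animal are paired, 68 genes (0.359%) and 0 members were called.

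Within an organ, most pairs of members had a positive correlation across mice, few of them strong, and the mouse with the highest levels in liver had the lowest in brain. As the mean over members of log2 CPM minus the mean of the tissue, the KO liver of mouse A stood at 1.0, with the highest value of 6 of the 7 members. WT liver of mouse E stood at -0.76 and KO liver of mouse C at -0.73, and the other 3 liver libraries were between 0.03 and 0.29. In brain the order was another. The KO brain of mouse A was lowest at -0.39, with the lowest value of 7 of the 10 members, and the KO brain of mouse C (0.32) and the WT brain of mouse E (0.24) were highest. The KO brain library of mouse A also had the largest share of mitochondrial ribosomal RNA, 31.6% of counts against 7.63 to 22.1% in the other 5 brain libraries, and the part of that share in its values was not tested. Across the 6 liver libraries, 20 of the 21 pairs of members had a positive Pearson correlation, with a median of 0.48, against 0.01 and 50.7% positive over all pairs of genes of at least 5 CPM. Across the 6 brain libraries the median was 0.41, with 36 of 45 pairs positive, against 0.01 and 50.3% over all pairs. In liver, an r over 0.8 was reached by 1 of the 21 pairs of members and by 4.68% of all pairs. In brain, 8 of the 45 pairs and 8.64% of all pairs reached it. These correlations are descriptions over 6 libraries that share 2 genotypes. Dusp1 was the member most like the others in liver (median correlation 0.70) and the least like them in brain (-0.04), where Egr1 (0.62), Arc (0.60) and Nr4a1 (0.58) were closest to the rest.

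**Figure D4:**
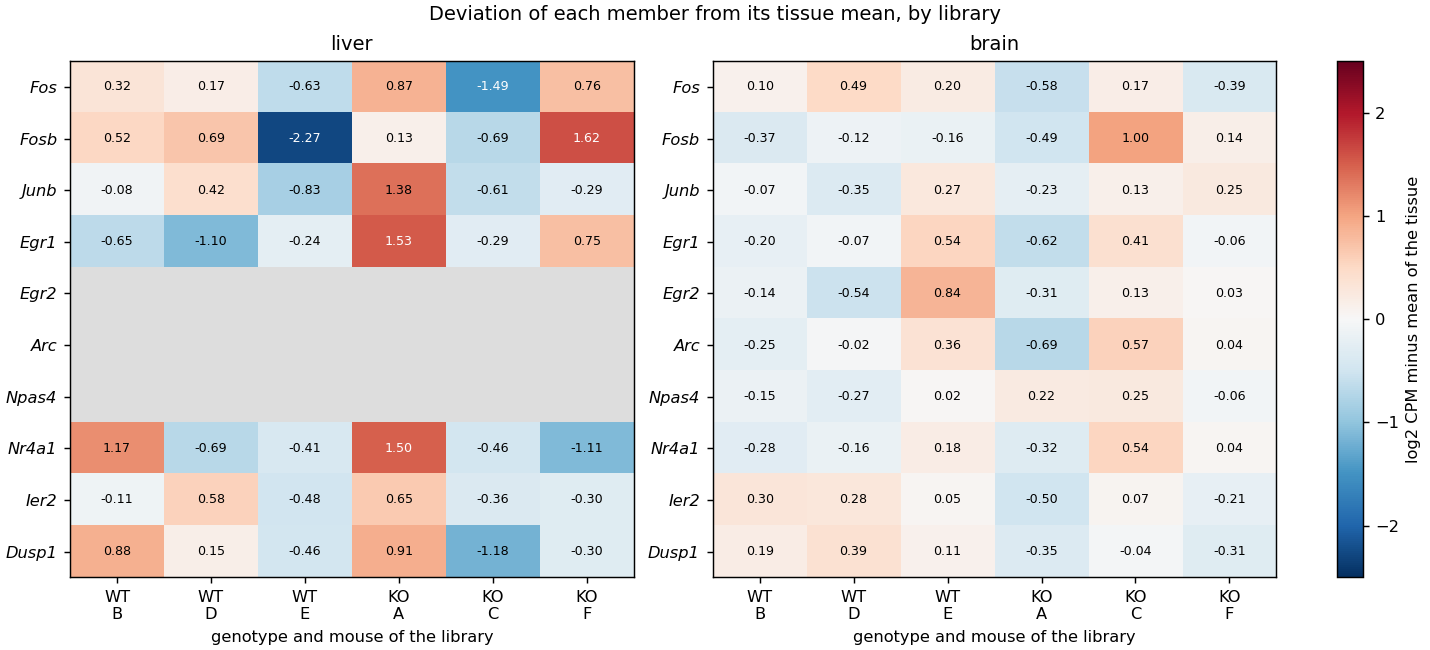
Log2 CPM of each member minus its mean over the 6 libraries of the tissue, with libraries in columns by genotype and mouse, red for higher and blue for lower. Grey rows had too few liver counts. The KO liver of mouse A is red in every member tested, and mouse A is blue for most members in brain.

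Other genes of the same responses were read as lists. Of 18 other early response transcription factors, 15 were tested in liver and 17 in brain, and none was called between genotypes. Their mean deviation was 0.48 in the KO liver of mouse A and -0.42 in its brain, in the same direction as the members. Myc, a transcription factor of growth, had 29.4, 5.29 and 10.5 CPM in KO liver and 2.75, 4.14 and 3.41 CPM in WT liver. It was thus higher in every KO library (log2 fold change 2.10, SE 0.64, adjusted p = 0.521). In liver, 13.2% of all genes tested had no overlap in either direction. Atf3, a stress factor, was at -0.65 in liver. In brain, Nr4a2, a relative of Nr4a1, was at -0.57 (adjusted p = 0.394) with 14.2, 21.0 and 14.0 CPM in KO and 19.7, 28.3 and 25.4 CPM in WT, and Jun, the partner of Fos, was at -0.43 (adjusted p = 0.466).

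Of 24 other early response effectors and feedback genes, 21 were tested in liver and 23 in brain, with none called. In liver, 18 of the 21 had a log2 fold change above 0, with a median of 0.23, against 49.6% of all genes. Without mouse A, 10 of 22 did, with a median of -0.07. The mean deviation of the list was 0.57 in the KO liver of mouse A, -0.27 and -0.01 in those of mice C and F, and -0.20 to 0.03 in WT liver. The smallest p-values belonged to the mRNA decay factor Zfp36 (-0.47, adjusted p = 0.485) and to Tiparp (-0.66, adjusted p = 0.497), both below 0. In brain, the stress gene Ier3 (-1.34, adjusted p = 0.369) and Dusp5, a phosphatase of ERK (-1.42, adjusted p = 0.373), had the smallest p-values. Dusp5 had 5.10, 17.9 and 12.4 CPM in KO brain and 21.5, 47.7 and 25.9 CPM in WT brain. Of 10 other neuronal activity genes, all were tested in brain and none was called. Their mean deviation was 0.24 in the KO brain of mouse A, where the members stood lowest at -0.39. It was -0.03 and 0.18 in the KO brains of mice C and F, and -0.41 to 0.08 in WT brain. Inhba, an activin subunit, had 16.8, 14.1 and 14.3 CPM in KO and 10.5, 4.78 and 7.60 CPM in WT brain (0.99, adjusted p = 0.320), and Scg2, a granin of secretory vesicles, was at 0.55 (adjusted p = 0.359), so these stood above 0 where Dusp1 and Fos stood below it. In liver, 6 of that list were tested, with Bdnf at -0.83 and Rheb at 0.15.

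Of 30 upstream kinases and transcription factors, 29 were tested in liver and 30 in brain, with none called. In liver, 23 of the 29 had a log2 fold change above 0, with a median of 0.17, against 49.6% of all genes. Without mouse A, 21 of the 29 did, with a median of 0.12. In brain, 11 of the 30 did, with a median of -0.07, against 49.8% of all genes. Crtc3, a coactivator of CREB, had 59.1, 34.9 and 32.0 CPM in KO liver and 24, 22.9 and 22.6 CPM in WT liver (log2 fold change 0.83, SE 0.22, adjusted p = 0.445), and Mrtfa, a coactivator of serum response factor, was at 0.47 (adjusted p = 0.554). In brain, the calcium-dependent kinase Camk4 was at -0.35 (adjusted p = 0.391) and Rps6ka1, a kinase downstream of ERK, at -1.24 (adjusted p = 0.395). Of 12 cytosolic heat shock genes, 11 had a log2 fold change below 0 in liver, with a median of -0.23 and none called. Over all genes, 49.6% stood above 0. Without mouse A, 1 of the 12 stood above 0, with a median of -0.18. Hspa4l had 24.4, 24.3 and 23.1 CPM in KO liver against 49.5, 39.0 and 41.0 CPM in WT liver (-0.88, SE 0.13, adjusted p = 0.336), and Hsp90aa1 was at -1.32 (adjusted p = 0.383). The mean deviation of the 12 heat shock genes was -0.24 in the KO liver of mouse A, where the members stood highest. It was 0.07 and -0.38 in the KO livers of mice C and F, where the members stood at -0.73 and 0.16. In WT liver of mice B, D and E it was 0.30, 0.24 and 0.01, where the members stood at 0.29, 0.03 and -0.76. In the KO brain of mouse A both were below 0, at -0.11 and -0.39. In brain, Hsp90aa1 was at 0.40 and Hspb1 at -0.67, and none of the 12 was called.

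The genes most like the mean of the members in liver, among 9333 others of at least 5 CPM, were Kat2b (Pearson r = 0.980 over 6 libraries), Ppm1m, Fam69a, Akip1 and Arhgap1 (0.961), and those most like Fos were Tmem168 (0.973), Itprid2, Igha, Dlgap1 and Mllt1. In brain, among 11499 genes, they were 1700052K11Rik (0.994), Msl1, Map3k10, Asb1 and Wwc1 for the mean, and Plekhh3, Eif2ak1, Plcb3, Usp21 and Rfxank for Fos. An r over 0.9 with Fos was found for 1217 genes (10.6%) in brain and 16 (0.171%) in liver, and with the mean of the members for 160 genes (1.39%) in brain and 21 (0.225%) in liver.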

How the data were processed

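Total RNA of liver and brain was sequenced with a stranded kit as single-end reads. Per the labels and the methods of the study, the authors trimmed reads with Trimmomatic, aligned them to mm10 with STAR 2.7.3a and counted reads over exons by strand with featureCounts. The deposited values are raw counts per gene, with no normalization. They sum all exons, so a part of a gene cannot be read on its own.

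The counts were analysed with edgeR 4.0.16 (R 4.3.3): TMM, filterByExpr, robust quasi-likelihood F tests (two-sided) within a tissue, p-values adjusted after Benjamini-Hochberg across every gene of a fit, and calls made below an adjusted p of 0.1. Printed CPM were scaled over all 12 libraries. Intervals of fold changes are 95% intervals from these fits, and SE come from the F statistic. SDs use log2 CPM with a prior count of 2 within a tissue. A group with at most 3 counts in each library was taken as at the floor, which covers counting error only. Fits were tested on simulated counts. Symbols were matched for 55141 of 55487 genes, and no member shared exon bases with another gene of its strand.

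The members and gene lists, including lists of cell type and region markers, were chosen with earlier results of these data known. All members are named. Of each related list the text names called genes, or else the 2 with the smallest p-values per tissue, and per tissue the 5 genes most like the members' mean and Fos. Liver and brain of a mouse share its letter. Their deviations from group means correlated at -0.0389 to 0.14 over 12574 genes, so the pairing by animal comes from the labels. Alternatives were DESeq2 1.42.0, its size factors, no filter, leaving out mitochondrial genes or each mouse, 1 fit of all libraries, Y-linked class, a GC and length offset and the block.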

Additional observations from a re-analysis of the deposited data

How the results depend on the processing

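No alternative called a member between genotypes except Egr1 in liver (1 member called with DESeq2 at a log2 fold change of 1.49, and 1 with no filter at 1.49). Counts of called genes depended strongly on the method. In liver, against 0, they were 171 with DESeq2, 443 with no filter, 3 with all 12 libraries in 1 fit, 82 with the Y-linked class as a covariate, and 0 to 87 when each mouse was left out. In brain, against 11, they were 269 with DESeq2, 1000 with no filter, 93 with the GC and length offset, and 2 to 23 with a mouse left out. For the difference between tissues, against 0, they were 369 with DESeq2, 1 with DESeq2 size factors, 1 without mitochondrial genes, 183 with no filter, and 0 to 86 with a mouse left out. With mouse as a paired block the difference gave 68 genes. The cause was not tested.

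Small fold changes turned sign in liver for Ier2 (-0.06 with the GC and length offset), and in brain for Arc (-0.01 with no filter) and Egr1 (0 with the offset). With a mouse left out, the liver values ran from -0.37 to 0.85 for Junb, -1.05 to 0.97 for Nr4a1, -0.4 to 0.36 for Ier2, -0.97 to 0.18 for Dusp1, 0.03 to 0.85 for Fos and -0.44 to 1.14 for Fosb. In brain they ran from -0.44 to 0.11 for Egr1, -0.33 to 0.28 for Arc, -0.06 to 0.38 for Nr4a1, -0.05 to 0.28 for Junb, -0.76 to -0.36 for Fos, 0.07 to 0.85 for Fosb and -0.49 to 0.31 for Egr2, and the members' median from -0.32 to 0.24. For the difference they ran from 0.93 to 2.31 for Egr1, 0.43 to 1.64 for Fos, -0.55 to 0.92 for Junb, -0.08 to 0.8 for Ier2, -0.53 to 0.74 for Dusp1, -1.41 to 0.91 for Nr4a1 and -1.07 to 1.08 for Fosb, and the median of the 7 members tested in both organs from -0.08 to 0.83. Between WT tissues they ran from 0.17 to 1.08 for Junb, 1.35 to 2.74 for Nr4a1 and -0.68 to 0.02 for Dusp1, which was called without mouse E, and the median of the 7 members from 1.35 to 2.74 against 1.76. The mouse block changed no member's call between tissues.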
